A study of Mus musculus with 4 samples.

Results

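The 7 genes described here belong to the program that turns limb mesenchyme into cartilage and bone: Sox5, Sox6 and Sox9 (the Sox trio), Acan, Gdf5, Runx2 and Runx3. They were chosen by name, and their surroundings were taken as every accessible region within 100 kb of the transcription start site, or within 500 kb for Sox9, whose regulatory domain is long. In these windows lay 177 of 99356 regions of the E10.5 list and 44 of 37413 regions of the E11.5 list. The regions come from ATAC-seq, in which the Tn5 transposase inserts sequencing adaptors where DNA is accessible, on limb cells of mouse embryos of the Wild Type genotype. Each of the embryonic stages E10.5 and E11.5 has 2 replicates, and no treatment is given. The cells came from fore- and hindlimbs and were dissociated with trypsin and fixed. No isolation of a cell type is given, so each list can mix mesenchyme, ectoderm, vessels, blood, nerve and migrating muscle precursors, and the strain is not given in the sources used here. Setting the stages side by side shows which regions each list holds.

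SOX9 is the transcription factor that starts cartilage formation, and it switches on SOX5 and SOX6, which bind next to it on cartilage genes and keep chondrocytes proliferating. Acan encodes aggrecan, the large proteoglycan of cartilage matrix and a target of the trio. GDF5, a BMP family ligand, marks the joint interzones that later separate the skeletal elements. RUNX2 and RUNX3 carry the Runt DNA-binding domain and act later, in the maturation of chondrocytes and, for RUNX2, in the making of osteoblasts. In the limb bud the mesenchymal condensations that prefigure the skeleton form around the stages sampled here.

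Each stage is represented by 1 peak list that joins both replicates, so there is no replicate spread, no test between stages and no known depth. The lists held 99427 and 37548 peaks in all. The E11.5 list is much the shorter, and a region missing from it may lie below what that list detects. A region's signal is the authors' value, which grows with width and starts just above 200 in both lists. Ranks run from 1 for the highest signal in a list, and ranks in lists of different length show no change between stages. Because the cells are a mixture, fewer cells of a type and less accessibility per cell cannot be told apart.

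All 7 genes had a promoter region, that is a region within 1 kb of the start site, in the E10.5 list, and 4 of them also had one in the E11.5 list. Sox5, Sox6, Sox9 and Acan had one in both lists, whereas Gdf5, Runx2 and Runx3 had one at E10.5 only. With the E10.5 list reduced to the length of the E11.5 list by signal, 6 genes had one at E10.5 and 4 at E11.5. Only the E10.5 region of Runx2 was then lost. Reduced by −log10 p, a choice made after seeing the data, 4 genes had one in each list. The E10.5 regions of Acan, Runx2 and Runx3 were then lost. Of 21532 protein-coding genes, 66.2% had one in the E10.5 list, 59.9% in the E11.5 list and 59.5% in both, and 89.9% of those with the former also had the latter. With 7 genes these shares do not set them apart from other genes. A region of the other list that overlaps by at least 1 bp is called a counterpart below. Of the 8 promoter regions of the 7 genes in the E10.5 list, 4 had a counterpart, against 84.1% of all promoter regions there. All 4 in the E11.5 list had one, against 98.7%.

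The DNA just before 5 of the start sites is shown to let the promoters in both lists be read beside those in the E10.5 list alone. Each is the 250 bases before a RefSeq start site in GRCm38.p6, which has the mm10 coordinates, and Sox6 and Runx3 have start sites inside the gene besides the outer one. Capitals mark ACAAT or ACAATG, the core bound by SOX factors, and TGTGGT or TGCGGT, bound by RUNX factors, searched on both strands. ACAATG contains ACAAT. The first 3 lie wholly inside a region of both lists, and the last 2 touch a region of the E10.5 list only.
Acan, chr7:79052976-79053225, plus strand: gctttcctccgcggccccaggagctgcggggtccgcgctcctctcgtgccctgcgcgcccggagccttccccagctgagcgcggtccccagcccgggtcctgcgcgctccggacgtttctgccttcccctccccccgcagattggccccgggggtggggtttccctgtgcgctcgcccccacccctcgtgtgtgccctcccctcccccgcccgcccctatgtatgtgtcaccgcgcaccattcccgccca
Sox6 inner start, chr7:116031048-116031297, minus strand: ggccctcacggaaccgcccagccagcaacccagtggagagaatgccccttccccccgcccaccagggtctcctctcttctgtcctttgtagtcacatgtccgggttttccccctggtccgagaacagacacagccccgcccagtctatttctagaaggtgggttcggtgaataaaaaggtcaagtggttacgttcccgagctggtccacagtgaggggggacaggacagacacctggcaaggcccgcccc
Runx3 inner start, chr4:135152295-135152544, plus strand: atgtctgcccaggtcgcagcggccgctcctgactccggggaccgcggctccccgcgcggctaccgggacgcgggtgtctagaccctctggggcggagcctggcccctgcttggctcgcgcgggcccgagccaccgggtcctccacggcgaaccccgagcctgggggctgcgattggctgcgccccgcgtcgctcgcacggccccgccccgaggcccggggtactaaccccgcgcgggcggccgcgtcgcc
Runx3 outer start, chr4:135120395-135120644, plus strand: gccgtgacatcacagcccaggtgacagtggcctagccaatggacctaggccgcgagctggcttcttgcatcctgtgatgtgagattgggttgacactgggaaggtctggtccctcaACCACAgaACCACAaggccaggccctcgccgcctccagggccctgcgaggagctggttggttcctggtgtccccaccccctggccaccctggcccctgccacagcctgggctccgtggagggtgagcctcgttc
Runx2, chr17:44814628-44814877, minus strand: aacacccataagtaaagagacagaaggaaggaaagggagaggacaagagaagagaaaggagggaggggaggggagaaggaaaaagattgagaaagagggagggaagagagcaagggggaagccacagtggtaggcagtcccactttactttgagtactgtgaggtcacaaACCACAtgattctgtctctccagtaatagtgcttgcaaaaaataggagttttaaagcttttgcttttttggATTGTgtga
The 250 bases held 26 CpG dinucleotides at Acan, 38 at the inner Runx3 start and 10 at the inner Sox6 start. They held 8 at the outer Runx3 start and 0 at Runx2, against a median of 10 over 21262 promoters of protein-coding genes. GC content was 74.4% at Acan, 60.8% at the inner Sox6 start and 78.8% at the inner Runx3 start. It was 65.2% at the outer Runx3 start and 44.8% at Runx2, against a median of 55.6%. The RUNX motif TGTGGT occurred 2 times before the outer Runx3 start and 1 time before the Runx2 start, and it occurred 0 times in the other 3 sequences. It was present in 12.4% of all promoters, and TGCGGT, in none of these 5, was present in 5.87%. The SOX core ACAAT occurred 1 time, before the Runx2 start, and it was present in 25.1% of all promoters, with ACAATG in 9.35%. The GC box GGGCGG occurred 3 times at Acan, 4 times at the inner Sox6 start and 3 times at the inner Runx3 start. It was absent from the Runx2 sequence and from the outer Runx3 sequence, and 42.6% of all promoters held it. TATAAA was in none of the 5 sequences and in 11.6% of promoters. CCAAT occurred 1 time at Acan, 1 time at the inner Runx3 start and 2 times at the outer, and 35.4% of promoters held it. Among the starts not printed, 2 of Sox6 also had a region within 1 kb. The 250 bases before the start at 116038744, which has such a region in both lists, had 45.2% GC, 9 CpG dinucleotides and 0 GC boxes, and they lay wholly in the E10.5 region and outside the E11.5 region. Those before the start at 115824710, with a region in the E10.5 list only, had 41.6% GC, 2 CpG dinucleotides and 0 GC boxes. GC content and GC boxes thus did not separate the starts with a region in both lists from the others.

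**Figure D1:**
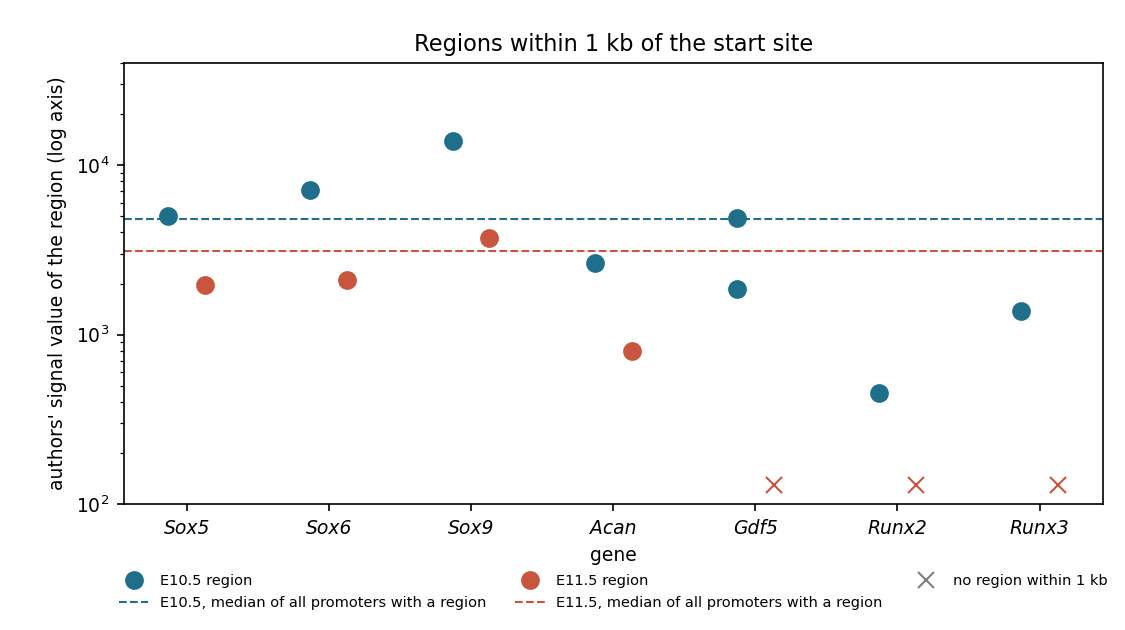
Signal of each region within 1 kb of the start site (vertical log axis, authors' signal value) for the 7 genes, with crosses for no region and dashed lines for the median of all protein-coding promoters with a region. Sox9 stands highest in both lists, at 13827 and 3686, and Gdf5, Runx2 and Runx3 have crosses at E11.5.

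By the outer start sites, Sox9 had the strongest promoter of the 7 genes in each list. Its E10.5 region (chromosome 11, 112780925 to 112785544) covered 4620 bp over the start site and the first part of the gene, with a signal of 13827, rank 615 and a −log10 p of 12.8. At E11.5 the region over the start site ran from 112781145 to 112783187, with a signal of 3686 and rank 5294. Summed promoter signal was lower than that of Sox9 in 96.6% of the protein-coding genes that had a promoter region in the E10.5 list, and in 59.9% of those in the E11.5 list. Inside the gene, 2 further E11.5 regions lay within the E10.5 region, with signals of 368 and 327. The first of these starts 1094 bp from the start site, just outside the promoter limit.

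The promoter regions of the partners Sox6 and Sox5 too were in the highest 10% of the E10.5 list. At Sox6 the E10.5 region (chromosome 7, 116038624 to 116040936) had a signal of 7132 and rank 4897, and the E11.5 region (116039543 to 116040666) had a signal of 2101 and rank 9977. At Sox5 the values were 5022 and rank 9654 at E10.5 (chromosome 6, 144780504 to 144783701), and 1952 and rank 10565 at E11.5 (144781401 to 144782904). In the E10.5 list 74.2% of genes with a promoter region had a lower signal there than Sox6 and 52.8% a lower one than Sox5. In the E11.5 list the shares were 31.6% and 28.7%, so both stood below the median promoter of that list. Of all promoter regions in the highest 10% of the E10.5 list, 99.6% had a counterpart, as those of the Sox trio did.

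Acan, the matrix gene of the group, had the weakest promoter at an outer start that was found in both lists. Its E10.5 region (chromosome 7, 79052149 to 79053876) had a signal of 2635 and rank 20816, and its E11.5 region (79052799 to 79053434) had a signal of 794 and rank 17868. The order Sox9, Sox6, Sox5, Acan by promoter signal at the outer starts was the same in both lists. No spread is available to say which neighbours in that order differ.

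Gdf5 had the highest promoter signal at E10.5 among the 3 genes without a promoter region in the E11.5 list. The region over its start (chromosome 2, 155943275 to 155945467), which covers the 5′ part of this short gene, had a signal of 4858 and rank 10144. A second region at 155945595 to 155946790, just upstream, had a signal of 1867 and rank 28070. Summed, they gave 6724, above 70.6% of genes with a promoter region in the E10.5 list and between Sox6 and Sox5. Neither had a counterpart, and no E11.5 region lay anywhere in the Gdf5 gene. The stronger of the 2 is in the highest 25% of the E10.5 list but not in the highest 10%, a class in which 96.4% of all promoter regions had a counterpart.

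The RUNX genes had the lowest promoter signal at E10.5 by the outer starts. At the outer start of Runx3 the region (chromosome 4, 135119784 to 135120773) had a signal of 1368 and rank 35760, and 10.3% of genes with a promoter region had a lower signal. At Runx2 the region (chromosome 17, 44814670 to 44815458) had a signal of 455, rank 69856 and a −log10 p of 4.16, and 2.67% of genes were lower. Neither had a counterpart. In the lower 50% of the E10.5 list by signal, where the Runx2 region falls, 21.7% of all promoter regions had one, and in the 25% above it, where the Runx3 region falls, 68.5% did.

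Where the RefSeq promoter table gives further start sites, the picture changed for Runx3 and Sox6. The inner Runx3 start, 31.9 kb downstream of the outer, lay in an E10.5 region with a signal of 1800 (135151462 to 135152615). In all, 3 E10.5 regions lay within 1 kb of it, and the other signals were 688 and 2363. The strongest of them (135153243 to 135154665, rank 22985) had no counterpart. At E11.5 a region with a signal of 414 and rank 25454 (135152214 to 135152957) spanned the inner Runx3 start. Thus 5 of the 7 genes had an E11.5 region when any listed start was allowed. The inner Sox6 start, 9.7 kb downstream of the outer, lay in the strongest region of all 7 windows, above the Sox9 promoter. That region (116030006 to 116035129) had a signal of 17571 and rank 238 at E10.5, with a width of 5124 bp. Its E11.5 counterpart (116030905 to 116034809) had a signal of 6166 and rank 1562, again the highest of all the windows. Both overlap the antisense gene Sox6os. Of the other 5 inner Sox6 starts in the table, 2 had an E10.5 region within 1 kb and 1 had an E11.5 region. The start 2032 bp inside the outer one shares the promoter regions of the outer start in both lists, and the start 216.1 kb inside had a region of signal 2329 in the E10.5 list only.

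Across the windows, 41 of 177 E10.5 regions had a counterpart. This is 23.2% (95% Wilson interval 17.6 to 29.9%), against 32.3% of all E10.5 regions. The interval covers counting error only and treats neighbouring regions as independent. Of the 44 E11.5 regions, 43 had one, which is 97.7% (88.2 to 99.6%), against 91.8% of all E11.5 regions. Regions away from any start site made up most of the windows. Of 158 such E10.5 regions 27 had a counterpart, 17.1% (12.0 to 23.7%), against 22.4% of all E10.5 regions of that kind. Of 31 such E11.5 regions 30 had one, against 87.6%. Sox9 supplied 84 of the 177 regions. Without Sox9 the E10.5 share was 29.0% (20.8 to 38.9%), an interval that holds the value for all regions.

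Overlap followed the signal, in the windows as in the whole list. In the highest 10% of E10.5 regions, 15 of 16 window regions had a counterpart, which is 93.8% (71.7 to 98.9%), against 96.7% of all regions. In the next 15% it was 12 of 21, which is 57.1% (36.5 to 75.5%), against 74.4%. In the next 25% it was 11 of 52, or 21.2% (12.2 to 34.0%), against 31.1%. In the lower 50% it was 3 of 88, or 3.41% (1.17 to 9.55%), against 7.39%. Each interval held the value of all regions. Without Sox9 the counts were 11 of 11, 8 of 12, 5 of 26 and 3 of 44 in the same order. The E10.5 regions with a counterpart had a median signal of 3931 in the windows, and the others had one of 594.

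**Figure D2:**
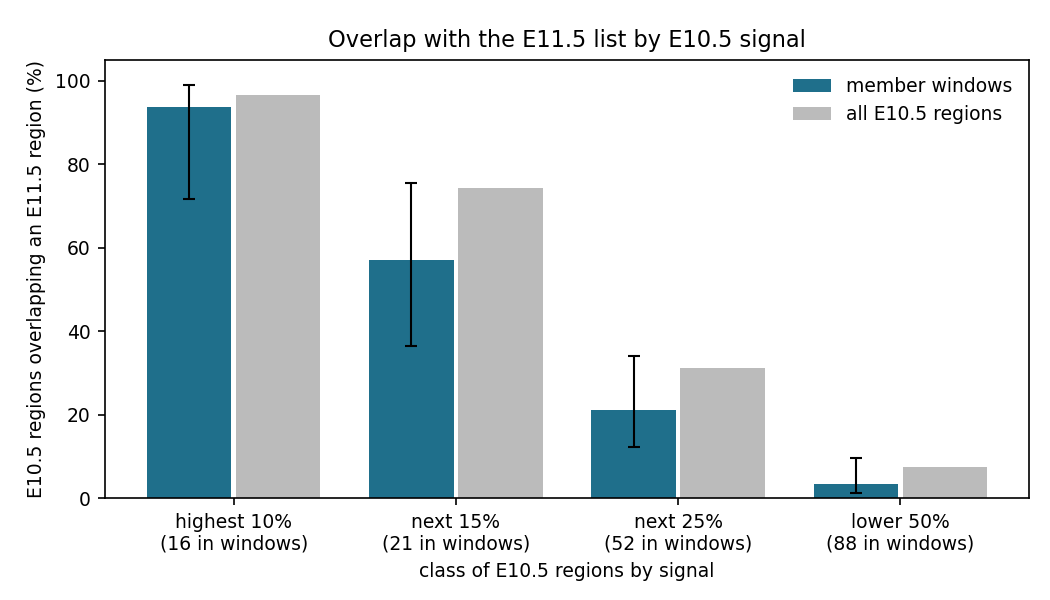
Percentage of E10.5 regions that overlap an E11.5 region (vertical axis), by class of E10.5 signal, for the regions in the 7 windows (blue, with 95% Wilson intervals) and for all E10.5 regions (grey). The share falls from 93.8% to 3.41% in the windows and from 96.7% to 7.39% in the whole list.

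The summits of overlapping regions lay close together. Of 44 overlapping pairs in the windows, 32 (72.7%) had summits within 100 bp of each other, with a median gap of 45 bp, against 76.4% and 27 bp for all 34604 pairs. The E11.5 region lay wholly inside its E10.5 counterpart in 40 pairs (90.9%), against 78.7% of all pairs. Its width was a median of 38.3% of the E10.5 width, against 60.5%. At Sox9 the summits over the start site both lay 27 bp upstream of it.

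The number of E10.5 regions per window ran from 10 at Runx2 to 30 at Runx3, with 15 at Sox5, 14 at Sox6, 13 at Gdf5 and 11 at Acan. The median over all protein-coding genes was 10 within 100 kb, and 3.25% of genes had more than the 30 of Runx3. At E11.5 the numbers ran from 1 at Sox5 to 7 at Runx3, with 6 at Gdf5, 5 at Sox6, 5 at Acan and 4 at Runx2, against a median of 5. Sox9 had 84 and 16 regions within 500 kb, against medians of 53 and 21 for all genes. More E10.5 regions than around Sox9 were found in 21.1% of genes, and more E11.5 regions in 63.6%.

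**Figure D3:**
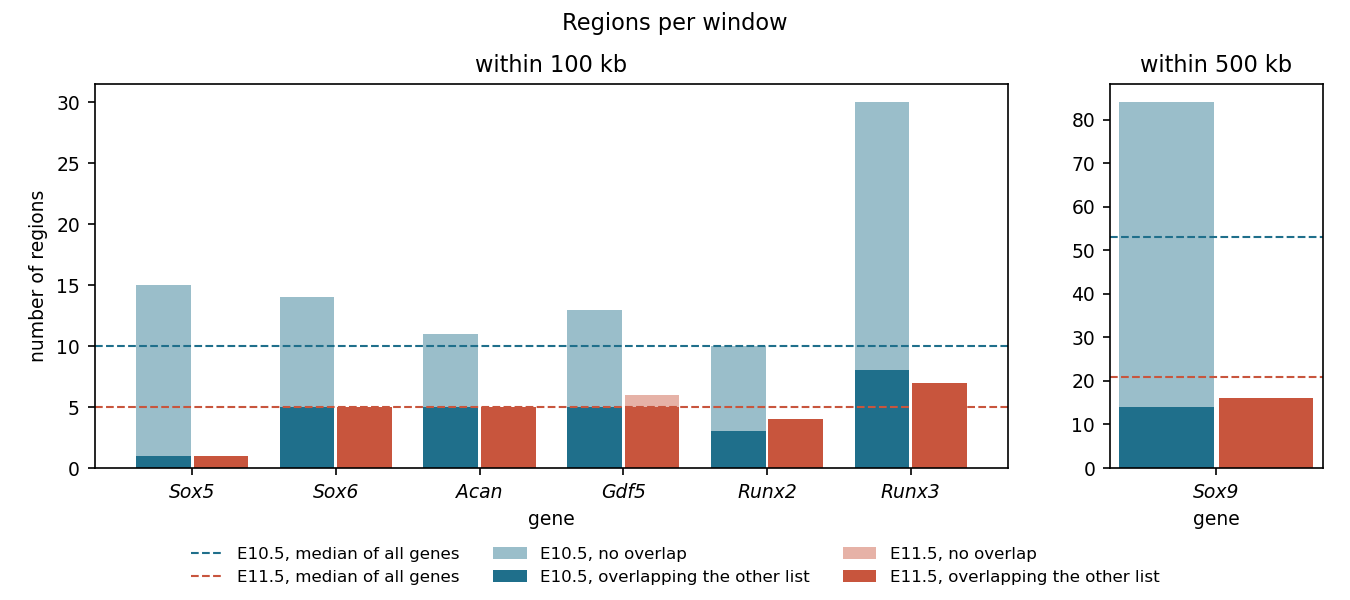
Number of regions within 100 kb of 6 start sites (left) and within 500 kb of the Sox9 start (right), by stage, with the part that overlaps the other list in full colour and medians of all protein-coding genes as dashed lines. Runx3, with 30, has the most E10.5 regions among the 6 genes, and Sox5 has 1 region at E11.5.

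The Sox9 window held no other protein-coding start site. Of its E10.5 regions 30 lay upstream and 53 downstream, besides the promoter region. The E11.5 list had 4 upstream and 11 downstream. All 16 E11.5 regions had a counterpart, and so did 14 of the 84 E10.5 regions, which is 16.7% (10.2 to 26.1%). Over all regions the shares were 91.8% for the E11.5 list and 32.3% for the E10.5 list, and the latter lies above the interval. That share includes promoter regions, whereas 83 of the 84 Sox9 regions lay away from the start site. Of these 83 regions 13 had a counterpart, 15.7%, against 22.4% of all E10.5 regions away from start sites. The value of 22.4% lies inside the interval for the 84 regions, so against regions of the same kind no departure was seen.

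The strongest distal Sox9 region at E10.5 lay 232.7 kb downstream (chromosome 11, 113013690 to 113017562), between genes, with a signal of 9616 and rank 2147. Its E11.5 counterpart (113014026 to 113015145) had a signal of 1291 and rank 13770. The next, 383.0 kb downstream (113163625 to 113165946) in the gene 2610035D17Rik, had a signal of 7335 and rank 4556, and its E11.5 counterpart had one of 631 (113164986 to 113165421). The third by signal, 339.1 kb downstream in the same gene (113120803 to 113123007), had a signal of 6784, rank 5486 and a −log10 p of 8.26. It had no counterpart and was the only window region in the highest 10% of the E10.5 list without one. Among all E10.5 regions of that class away from start sites 90.9% had one.

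A further region 194.9 kb downstream (112976395 to 112978153) had a signal of 5033 and an E11.5 counterpart (112976673 to 112977384) of 1054. The fifth lay 419.6 kb downstream (113200803 to 113202056), with a signal of 4806 and rank 10355. Its counterpart (113200897 to 113202048) was the strongest distal Sox9 region at E11.5, with a signal of 1835 and rank 11041. The 2 lists therefore ordered the distal Sox9 regions differently.

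A further 3 regions ranked among the 5 strongest distal Sox9 regions at E11.5 without doing so at E10.5. The region 390.4 kb downstream (113172501 to 113173313) had a signal of 1279 and overlapped an E10.5 region with a signal of 1102. Upstream, the region at 369.6 kb (112412286 to 112412816) had a signal of 1075 and rank 15200, and its E10.5 counterpart (112411834 to 112413424) had a signal of 4473. The region 88.1 kb downstream (112869867 to 112870952) in Gm46301 also had a signal of 1075, with rank 15208, and overlapped an E10.5 region with a signal of 4358. The strongest upstream Sox9 region was thus the same in both lists.

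Of the 37 window regions in the highest 25% of the E10.5 list, 10 had no counterpart, and 6 of these lay downstream of Sox9 between 339.1 and 480.0 kb. Beside the region at 339.1 kb, the strongest was 439.3 kb downstream between genes (113220738 to 113222156), with a signal of 4261 and rank 12334. Of all regions away from start sites in that class, below the highest 10% and within the highest 25%, 63.1% had a counterpart. Of the 37 regions, 27 had a counterpart (73.0%), against 83.3% of all E10.5 regions in the highest 25%. All those of Sox5, Sox6, Acan and Runx2 did.

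**Figure D4:**
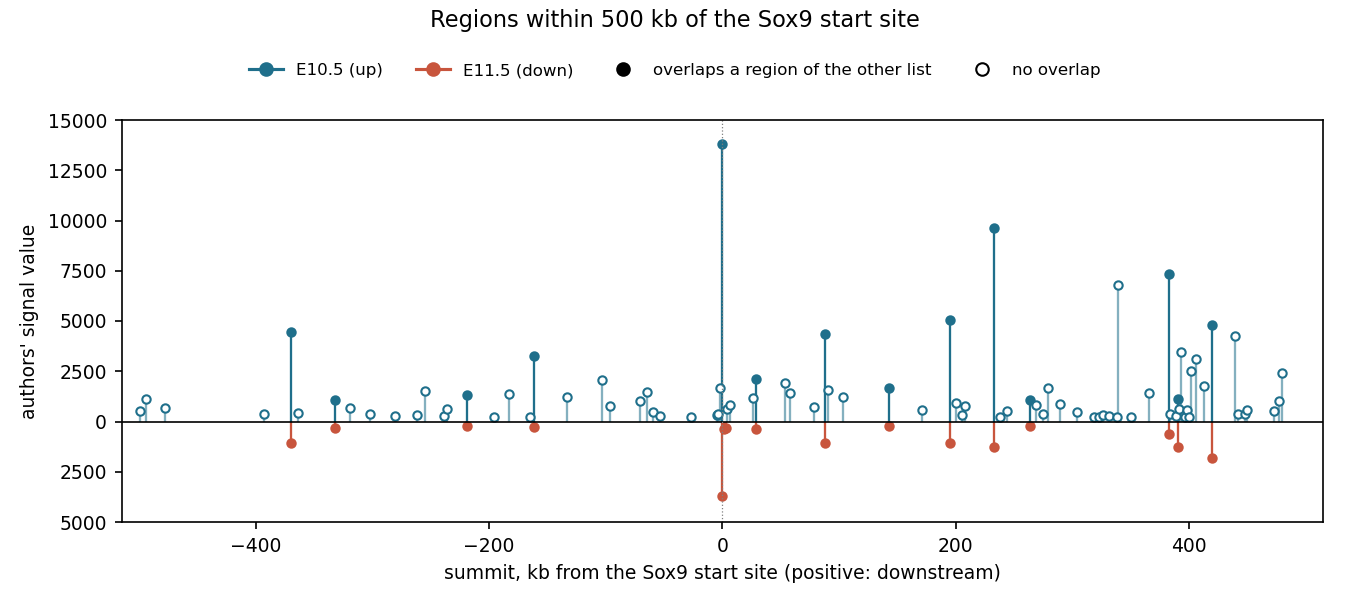
Signal of each region within 500 kb of the Sox9 start site (vertical axis, authors' value, E10.5 upward and E11.5 downward) against its summit's distance in kb, with open circles for regions without overlap. The promoter is the tallest in both lists, and the tallest open circle, at 6784, lies 339.1 kb downstream.

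In the Sox6 window all 5 E11.5 regions had a counterpart. The strongest region away from the Sox6 starts lay 52.5 kb upstream (116092425 to 116094061), over a start site of the neighbouring gene 1110004F10Rik. It had a −log10 p of 13.9 and a signal of 6344 in the E10.5 list, and its counterpart had a signal of 4859 and rank 3027 (116092652 to 116093858). The strongest Sox6 region in the E10.5 list only lay inside the gene, 96.3 kb downstream of the start (115944347 to 115944787), with a signal of 1489. Away from the starts of protein-coding genes, no region of the Sox6 window had a signal above 1512.

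Around Sox5 the only E11.5 region was the promoter. None of the 14 distal E10.5 regions had a counterpart, so with 3 counts as the limit for a count of 0 the share could reach 21.4%. The share was 22.4% over all E10.5 regions away from start sites. By signal, 10 of the 14 fall in the lower 50% of the list and 4 in the 25% above it, where 7.39% and 31.1% of all regions had a counterpart. The strongest was inside the gene, 28.3 kb downstream of the start (144753775 to 144754601), with a signal of 1669 and rank 30713. The next was 32.8 kb upstream (144814941 to 144815372), with a signal of 1503 and rank 33230. None of the 14 thus reached the highest 25% of the list, which starts at a signal of 2162.

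The Acan window held 5 E10.5 regions with a counterpart, of which 2 lay over the starts of neighbours. The strongest, with a signal of 7610 and rank 4167 (79147116 to 79149526), covered the start of Mfge8, and its E11.5 counterpart (79147289 to 79149466) had a signal of 3722. The second (79129929 to 79131986), with a signal of 4017, lay at a start of Hapln3, which encodes a link protein that binds hyaluronan, and had an E11.5 counterpart of 241. Between genes, 62.7 kb upstream of Acan, a region with a −log10 p of 10.4 and a signal of 3810 (78989761 to 78991112) had a counterpart with a signal of 918 and rank 16582 (78990096 to 78990662). Inside Acan itself, 27.7 kb downstream of the start, the only region beside the promoter (79080270 to 79081250, signal 1282) was in the E10.5 list alone.

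Regions over neighbouring genes also led the Gdf5 window at E11.5. The regions over the starts of Ergic3 and 6430550D23Rik (156007673 to 156008651) and of Cep250 (155956143 to 155957013) had signals of 3378 and 2429, and their counterparts had signals of 5277 and 4846. At E10.5 the strongest region (155862186 to 155864328) lay in Uqcc1, 82.0 kb downstream of Gdf5, with a signal of 6583 and rank 5895. Its E11.5 counterpart had a signal of 1251. Only 1 region away from start sites within 10 kb of Gdf5 was in both lists, 4.1 kb upstream (155949044 to 155950231), with a signal of 2285 at E10.5, and its counterpart had 319. The window also held the 1 region of all 7 windows that was in the E11.5 list only. It lay in Cep250, 44.0 kb upstream (155989174 to 155989392), and was weak, with a signal of 233 and rank 34717.

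In the Runx2 window all 4 E11.5 regions lay downstream of the start, inside the gene. The strongest region (44776507 to 44778016) covered the start of Supt3, a site that lies inside Runx2. It had a signal of 5363 at E10.5 and 4341 with rank 3884 at E11.5 (44776680 to 44777857). The second, 78.6 kb downstream (44733906 to 44736750), had a signal of 5253 and rank 8969. It overlapped 2 E11.5 regions, with signals of 1311 (44735800 to 44736655) and 736 (44734480 to 44735669). Both regions outranked the region at the outer Runx2 start site. The only Runx2 start in the RefSeq promoter table lies 170 bp from that outer start. Whether the second region lies at a Runx2 start not listed there was not tested. The strongest Runx2 region in the E10.5 list only (44724349 to 44725061) had a signal of 1078.

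Runx3 had the most crowded of the 100 kb windows, with 22 of 30 E10.5 regions downstream of the outer start and 7 upstream. The strongest (135165038 to 135169393), inside the gene 46.1 kb downstream, had a signal of 11156, rank 1339 and a −log10 p of 14.1. Its E11.5 counterpart (135166374 to 135167262) was the strongest of that list too, with a signal of 1575 and rank 12233. The second, 26.4 kb downstream (135146090 to 135147914), had a signal of 5471 at E10.5, and its counterpart had 582 (135146680 to 135147228). In the E10.5 list alone the strongest was at 54.5 kb (135174851 to 135176155), with a signal of 2445. All 7 E11.5 regions of the window had a counterpart.

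**Figure D5:**
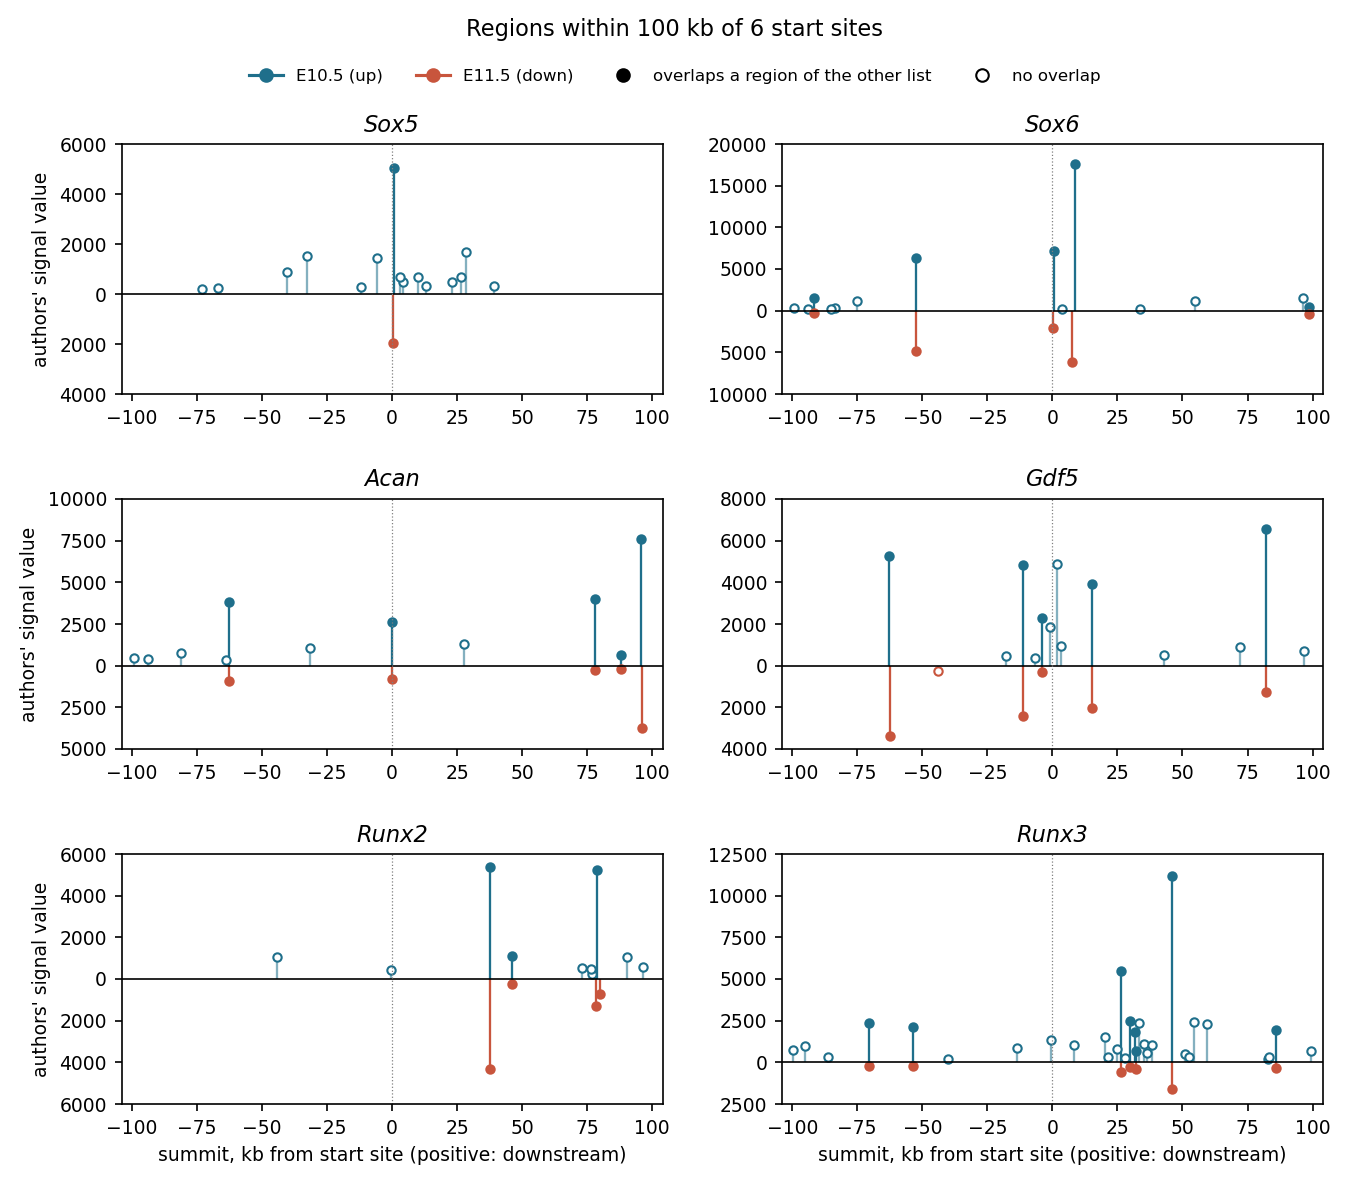
Signal of each region within 100 kb of 6 start sites (vertical axis, authors' value on a scale of its own per gene, E10.5 upward and E11.5 downward) against its summit's distance in kb, with open circles for regions without overlap. Sox6 and Runx3 have their tallest region inside the gene, at 17571 and 11156, and Gdf5 has open circles at its start.

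The window limits left out some regions that lay close by. Just inside 100 kb of Sox6 an E10.5 region at 99.2 kb had a signal of 365, and just outside, 100012 bp away, lay a region with a signal of 1125. At Runx3 the E10.5 regions on either side of the limit were at 99.6 and 100.9 kb, with signals of 730 and 2392. At Sox9 those on either side of 500 kb were at 498.6 and 501.1 kb, and the outer had a signal of 1696.

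The wider set of cartilage, joint and bone genes comprised 41 genes, of which 30 (73.2%) had a promoter region in the E10.5 list and 25 (61.0%) in the E11.5 list, all of them among the 30. These shares lie near those of all protein-coding genes, 66.2% and 59.9%. Where present, the promoter signal had a median of 5143 in the E10.5 list (all genes, 4803) and of 2110 in the E11.5 list (all genes, 3112). In the E10.5 list only were Chad (signal 3319), which encodes chondroadherin, a matrix protein, Col11a2 (2482) and Col9a1 (408), which encode fibrillar and fibril-associated cartilage collagens, Sp7 (1414), the osteoblast transcription factor, and Ihh (1275), the hedgehog ligand of prehypertrophic chondrocytes. Neither list had one at the outer start of 11 genes: Matn1, Epyc, Snorc, Ucma, Col10a1, Mef2c, Prg4, Runx1, Ibsp, Bglap and Spp1. When any listed start was allowed, 32 of the 41 genes had one in the E10.5 list and 28 in the E11.5 list. Some of the absences named here thus depend on the start used. The shares of all protein-coding genes are for the outer start only. Other matrix and bone genes had one in both lists, among them Comp, Matn3, Hapln1 and Alpl. Col2a1, the main cartilage collagen and a target of the Sox trio, was picked out after its values were seen. Its promoter region had a signal of 19704 and rank 149 in the E10.5 list, above those of all 7 genes, and a signal of 2804 and rank 7658 in the E11.5 list.

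The listed genes nearest to the 7 genes in log2 promoter signal over the 2 lists were sought among 25 genes with a promoter region in both. For Acan it was Col9a2 (E10.5 signal 2514, E11.5 signal 833, distance 0.10). For Sox5 it was Nkx3-2 (4563 and 2389, distance 0.32), for Sox6 Gdf6 (8536 and 1794, distance 0.35) and for Sox9 Nog (9398 and 3763, distance 0.56). With 2 values per gene these distances are descriptions only.

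The labelled tissue was checked by marker genes of limb mesenchyme, of which 10 of 10 had a promoter region in the E10.5 list and 8 in the E11.5 list. Over all protein-coding genes 66.2% and 59.9% had one, so a marker's promoter region alone does not show that its cell type was present. In the E10.5 and E11.5 lists there were 7 and 5 of 8 for ectoderm, 4 and 2 of 7 for endothelium, 4 and 5 of 8 for blood, 6 and 3 of 6 for muscle precursors, and 6 and 5 of 6 for nerve and glia. Their part in the regions near the 7 genes was not tested.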

How the data were processed

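Chromatin accessibility was measured by ATAC-seq in 4 limb samples. Titles give the groups, with stages E10.5 and E11.5 of 2 replicates each, although E10 is written for the earlier one in the protocol. Per the submitters' processing notes, cutadapt, Bowtie2, SAMtools, deepTools and Genrich were used, with versions and roles not given. Per the file headers, each of the 2 lists is in narrowPeak format on mm10 and names both libraries of its stage. How they were joined, the filters, any shift of read ends and the depth are not given in the sources used here. The deposited signal is a value per peak that grows with width, and the deposited −log10 p is the peak's own. The deposited score was not used.

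Regions on chromosomes 1 to 19, X and Y were compared in Python 3.11.15 with pandas 2.3.3. Positions are 1-based. A start site is the outer end of the gene in a RefSeq table of GRCm38.p6, with strand from the RefSeq promoter table or, failing that, GENCODE M1, for 21532 of 21883 protein-coding genes. Sequences came from the RefSeq promoter table, which matched 5 of the 7 genes. The overlap code was tested on simulated lists. The members, lists and naming rule (the promoter regions, the strongest distal regions per list, and regions in 1 list only) were chosen with earlier results of these data known. A shorter or shallower library yields fewer regions, so absence from a list is not absence of accessibility. The alternatives tried were a −log10 p limit, matched list length, stricter overlap, other windows and other start sites.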

Additional observations from a re-analysis of the deposited data

How the results depend on the processing

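No paired analysis was possible because the replicates of a stage are merged in its list, and no replicate could be left out. Over 11 alternative settings, 32 of 52 values stayed within 1.5 times of a count or inside the 95% interval of a share, and 20 did not. With −log10 p of at least 5 the windows held 97 and 19 regions, with 100% of the latter overlapping, and the promoter regions of Runx2 at E10.5 and of Acan at E11.5 were lost. With the E10.5 list reduced to the length of the E11.5 list by signal, 62 E10.5 regions remained, and 54.8% of them and 84.1% of the E11.5 regions overlapped. Reduced by −log10 p, 61 remained, the shares were 57.4% and 86.4%, and 4 members had an E10.5 promoter region: Sox5, Sox6, Sox9 and Gdf5. Gdf5 kept its E10.5 promoter region in each of the settings run for promoters. None of these settings could add an E11.5 region at Gdf5, so they do not test its absence from that list. Reciprocal overlap of 50% gave 6.78% and 27.3%, and summits within 100 bp gave 72.7% of E11.5 regions. Windows of 50 kb (250 kb for Sox9) held 88 and 24 regions, 100 kb for Sox9 too gave 112 at E10.5, whole genes with flanks gave 324 and 74, and leaving Sox9 out gave 93 and 28. The limit on −log10 p, the matching and the windows change the numbers by construction. Matching by −log10 p and leaving out Sox9 were chosen after seeing the data.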

Other observations

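Sox5, Sox6 and Runx2 are long genes that reach beyond their windows, and further regions lay in their bodies. Sox5 spans 954 kb, and 56 E10.5 and 14 E11.5 regions lay in it outside the window. All 14 lay over an E10.5 one, whereas inside the window the promoter was the only region in both lists. The strongest lay 572.7 kb into the gene (chromosome 6, 144208503 to 144211612). At E10.5 it had a signal of 11236 and rank 1306, above the region at the outer Sox5 start. At E11.5 its counterpart (144208840 to 144211270) had a signal of 3895 and rank 4829, again above the region at the outer start. Another, 517.7 kb into the gene, had signals of 6308 and 1522. The single Sox5 start in the RefSeq promoter table, 835.2 kb from the outer end, had no region within 1 kb in either list. Whether the strong inner regions lie at Sox5 starts not listed there was not tested.

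Sox6 held 46 E10.5 and 9 E11.5 regions outside its window, of which the strongest at E10.5 (chromosome 7, 115623966 to 115625675) had a signal of 6348 and rank 6361. Runx2 held 22 and 4, and the strongest at E10.5 (chromosome 17, 44565005 to 44566711, signal 4620, rank 10976) had no E11.5 overlap. All 9 and all 4 of these E11.5 regions lay over an E10.5 one.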
